A study of Bos taurus with 2 samples.

Results

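The phospholipase C isoforms of bovine testis are 10 genes, PLCZ1, PLCB1, PLCB2, PLCB3, PLCB4, PLCD1, PLCD3, PLCD4, PLCE1 and PLCG1, taken as every non-control probe of the array that carries 1 of these gene names. They were read by 19 probes in 20 spots, out of 32429 gene names, 51282 probes and 61657 non-control spots on the array. RNA was extracted from the right testis, removed surgically, from 3 crossbred bulls (Holstein Friesian crossbreds with 50 to 75% exotic inheritance) and from 3 Zebu bulls of the Tharparkar breed, all adult males aged 24 months. The RNA of a group was pooled in equal amounts, labelled with Cy3 and hybridized to 1 bovine array, so each group is 1 sample and the spread among its animals was not measured. The labels name no treatment, and the comparison asks which transcripts differ in level between crossbred testis, where subfertility is common, and Zebu testis.

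Phospholipase C enzymes cut the membrane lipid phosphatidylinositol bisphosphate (PIP2) into inositol trisphosphate (IP3), which opens calcium stores through the IP3 receptor, and diacylglycerol, which activates protein kinase C. The isoforms differ in what switches them on. The beta isoforms answer to Gq-coupled receptors, the gamma isoforms to tyrosine kinases, epsilon to small GTPases of the Ras family, and the delta isoforms to calcium itself. PLCZ1 is made in spermatids and carried into the egg by the sperm, where it sets off the calcium oscillations that start development, and it lacks the membrane-binding PH domain of the delta isoforms.

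Each probe has 60 bases, and the values below rest on what these short stretches hybridized. The probe sequences that carry the largest differences, and those of the gene whose probes disagreed, are given 5′ to 3′ as the array files list them, with no base set apart.
PLCZ1: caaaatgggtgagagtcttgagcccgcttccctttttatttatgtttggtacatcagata
PLCB1: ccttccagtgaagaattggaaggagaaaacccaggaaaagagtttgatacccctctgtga
PLCB3 probe 1: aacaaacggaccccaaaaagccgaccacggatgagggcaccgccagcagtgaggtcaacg
PLCB3 probe 4: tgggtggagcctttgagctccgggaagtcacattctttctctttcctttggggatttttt
PLCD3: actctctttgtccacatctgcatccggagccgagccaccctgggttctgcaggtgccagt
PLCD4: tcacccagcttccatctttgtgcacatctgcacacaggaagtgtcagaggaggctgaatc
PLCE1 probe 1: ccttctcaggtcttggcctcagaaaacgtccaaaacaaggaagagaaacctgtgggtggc
PLCE1 probe 2: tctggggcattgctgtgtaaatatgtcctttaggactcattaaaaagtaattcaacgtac
In the array annotation, on HGSC Btau_3.1, the probe of PLCZ1 lies on the plus strand at chr5:98073061-98073120 and starts at base 2115 of its target transcript. The probe of PLCB1 lies at chr13:1711878-1711937, that of PLCD3 at chr19:46219504-46219563 on the minus strand, and that of PLCD4 at chr2:111000304-111000363. The probes of PLCE1 lie at chr26:16214505-16214564 and chr26:16220231-16220290, which is 773 bases apart on the transcript and 5726 bases apart on the chromosome. Probe 1 of PLCB3 covers chr29:44348258-44349132, a span of 875 bases, so it crosses at least 1 exon junction, whereas probe 4 lies unbroken at chr29:44356030-44356089. The annotation gives no exon or untranslated region for a probe.

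Levels are normalized log2 signals, the log2 of the processed signal of the scanner software minus the 75th percentile of the array, and every difference is crossbred minus Zebu. A probe was counted as detected where the software marked it well above background on at least 1 array. Of the 19 probes, 14 were detected on both arrays, 1 in crossbred testis alone and 4 nowhere. With 1 array per group there is no replicate check and no p-value. The tolerance used for a difference is the SD between replicate spots of the same probe, 0.331 over 5960 probes, which covers spotting and scanning but not labelling, pooling or animals. The arrays were alike in brightness, with 75th percentiles of 1176 (crossbred) and 1233 (Zebu) and 72.0% and 74.3% of non-control spots well above background, and no spot was saturated. The number of arrays limits the precision.

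**Figure D1:**
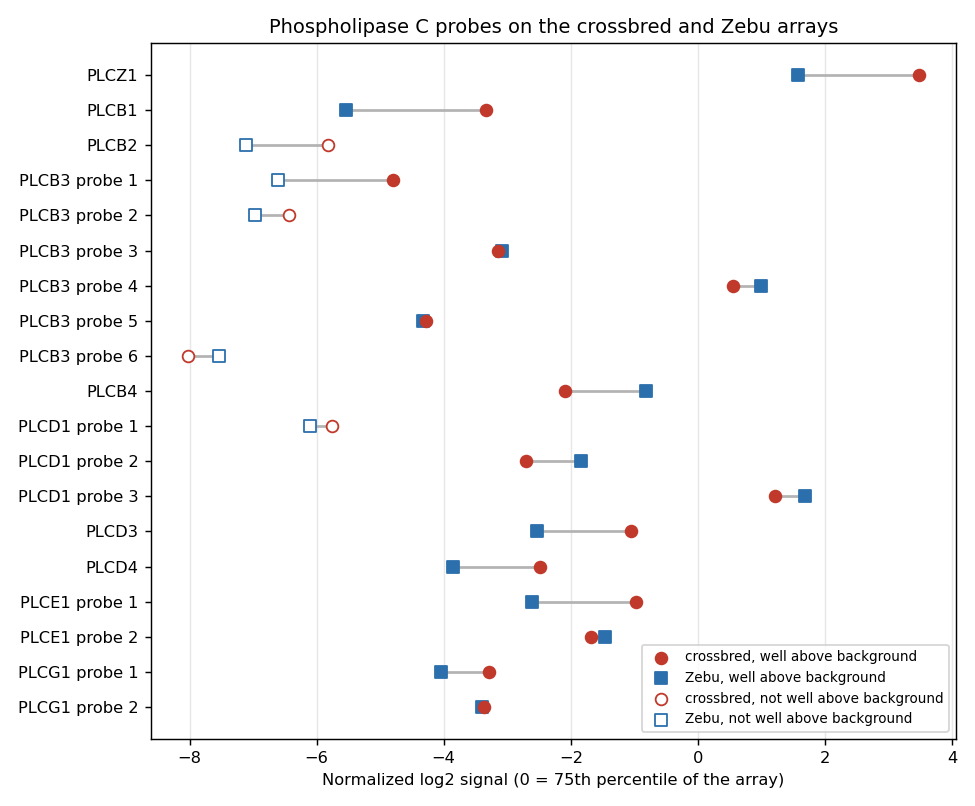
Normalized log2 signal of each of the 19 phospholipase C probes (x axis, 0 is the 75th percentile of the array) on the crossbred array (red circles) and the Zebu array (blue squares), with open symbols where the probe was not well above background. The crossbred symbol lies to the right for PLCZ1, PLCB1, PLCD3, PLCD4 and probe 1 of PLCE1 and to the left for PLCB4 and the detected probes of PLCD1, and levels of different probes are not comparable.

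PLCZ1, the sperm factor that activates the egg, was higher in crossbred testis. Its single spot gave processed signals of 13152 (crossbred) and 3689 (Zebu), which are normalized levels of 3.48 and 1.58. The difference was 1.90 on the log2 scale, a 3.74-fold higher signal, and well beyond the SD between replicate spots. The 18 nearest spots had a median difference of 0.139, and 1 of the 6 adjacent spots was higher by 1.5 or more, although the spot lies 4 rows beyond the edge of a patch of the crossbred array in rows 54 to 99 and columns 35 to 46 where signals are dark. No second probe of PLCZ1 is on the array. In the gene table of ARS-UCD2.0, the gene next to PLCZ1 is CAPZA3, which encodes an actin-capping subunit of the sperm head. Its probe, detected on both arrays, was also brighter in crossbred testis, with a difference of 1.46. AEBP2, another gene of that region in mammals, differed by -0.23, and PIK3C2G, also nearby, was not well above background on either array.

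The spermatid markers were higher in crossbred testis too. All 10 spermatid markers (PRM1, PRM2, TNP1, TNP2, ACRV1, SPACA1, TSSK1B, ODF1, AKAP4 and SPEM1) were detected on both arrays, and all were higher in crossbred testis, 7 of them by 1.5 or more, where 7.12% of all detected gene names were (2.92% were lower by as much). Their differences ran from 0.36 for PRM1 to 2.92 for SPEM1, with a median of 1.67, and PLCZ1 lies inside this range. The study listed TNP2, ACRV1, TSSK1B, ODF1, AKAP4 and SPEM1 because they were higher on these same arrays, so this count is not independent evidence. TNP1, at 0.49 in its brightest probe and 1.47 and 1.55 in its others, was picked for real-time PCR partly by its array fold change. In the real-time PCR of the study, on testes of single bulls, TNP1 and TNP2 were significantly higher in crossbred bulls, the same direction as on the array. SPEM1 followed the opposite trend to the array there. The summed level of the spermatid markers, in multiples of the 75th percentile, was 552 (crossbred) and 284 (Zebu). Of the 24751 detected gene names, 11618 lay above 0 and 13133 below. All 6 detected Sertoli cell markers, all 7 Leydig cell markers and all 6 peritubular markers were lower in crossbred testis, with medians of -0.99, -0.57 and -0.77. All but 2 of these 19 markers, the Leydig cell genes CYP17A1 and HSD3B1, differed by less than 1.5. Their summed levels were 131.5 and 207.9 for Sertoli, 87.8 and 132.6 for Leydig, and 39.9 and 68.8 for peritubular markers, crossbred before Zebu. The sum was also lower in crossbred testis for spermatogonia markers (27.34 and 40.96). It was higher for spermatocyte, endothelial (5.6 and 2.83) and macrophage markers (17.88 and 9.32). The brightest probes weigh most in a sum, although levels of different probes are not comparable. CLU (log2 levels of 6.63 and 7.10) was the brightest Sertoli marker and INSL3 (6.25 and 6.69) the brightest Leydig marker. CLDN5 (2.22 and 0.89) was the brightest endothelial marker, and 4 of these markers were higher and 2 lower in crossbred testis. Among the macrophage markers 3 were higher and 2 lower, and AIF1 (3.09 and 1.14) differed most. The 5 spermatocyte markers on the array had a median of 0.20, the 7 spermatogonia markers of -0.89 with 1 lower by 1.5, the 6 endothelial markers of 0.11, and the 5 macrophage markers of 0.20 with 1 higher by 1.5. In bulk testis RNA, more cells of a type and more RNA per cell cannot be told apart, and the part of these markers in the difference of PLCZ1 was not tested.

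Among the beta isoforms, PLCB1 had the largest difference of all 10 genes. It is the isoform that couples Gq receptors to calcium release in many tissues. Its spot gave signals of 116 (crossbred) and 26.5 (Zebu), or levels of -3.34 and -5.54, a difference of 2.20 and a 4.60-fold higher signal in crossbred testis. The Zebu value is close to the lowest level that was well above background on that array, -5.94, so this difference rests on a dim spot, and after normexp background correction it was 1.09. The 18 nearest spots had a median difference of -0.09, and none of the 6 adjacent spots was higher by 1.5.

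PLCB4, best known from neurons of the cerebellum and retina, differed in the opposite direction. Its signal was 275 in crossbred and 701 in Zebu testis, levels of -2.10 and -0.81, and the difference of -1.28 was the lowest of the 10 genes. It is below 1.5 in size and larger than the SD between replicate spots. A probe that the array lists by accession and not under the gene name also targets PLCB4, and it was not well above background in either of its 2 spots on either array. PLCB2, an isoform of white blood cells, was not detected, with signals of 20.9 and 8.94, and no fold is given for it.

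PLCB3, a widely expressed Gq effector, was read by 6 probes that did not agree. Probe 4 was the brightest over both arrays, with levels of 0.56 in crossbred and 0.99 in Zebu testis and a difference of -0.44. Its spot is the only 1 of the 20 that lies in the dark patch of the crossbred array, where the 18 nearest spots had a median difference of -1.30 and 3 of the 6 adjacent spots were lower by 1.5 or more. Probes 3 and 5, spotted elsewhere, start 301 bases before and 380 bases after probe 4 on the transcript and differed by -0.07 and 0.04. These values are smaller than the SD between replicate spots. Probe 1, which starts at base 1696 and spans an exon junction, had levels of -4.81 and -6.61 and a difference of 1.81, but its Zebu spot was not well above background. Set against the lowest level detected there, it was at least 2.20-fold higher in crossbred testis, which is a log2 difference of 1.13. Probes 2 and 6 were not well above background on either array. Without the spot in the dark patch, the brightest probe of PLCB3 differed by -0.08.

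**Figure D2:**
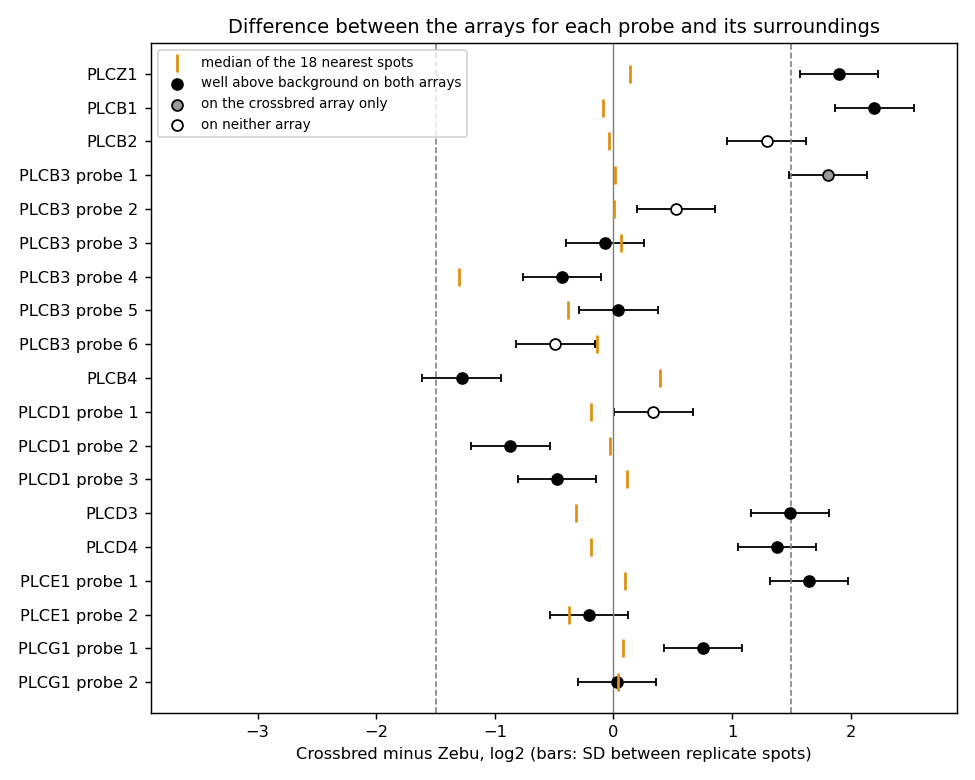
Difference between the arrays for each of the 19 probes (x axis, crossbred minus Zebu, log2), with bars of 1 SD between replicate spots (0.331) and an orange tick for the median difference of the 18 nearest spots; grey and open circles were well above background on 1 or neither array, and dashed lines mark 1.5 in size. PLCZ1, PLCB1, probe 1 of PLCB3 and probe 1 of PLCE1 lie beyond 1.5, and only probe 4 of PLCB3 sits among spots whose median lies beyond 1.

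Of the delta isoforms, which calcium activates, PLCD3 and PLCD4 were higher and PLCD1 was slightly lower in crossbred testis. PLCD3 had signals of 568 and 212, levels of -1.05 and -2.54 and a difference of 1.49, just under the threshold of 1.5. A second PLCD3 probe, listed on the array by accession and matched through its description, was spotted in 2 places and differed by 1.72 and 1.74 in them, with mean levels of -1.43 and -3.15. So both probes of PLCD3 gave a difference within the SD between replicate spots of each other. PLCD4, an isoform that is present in the sperm head and takes part in the acrosome reaction of mouse sperm, had 2 spots on different parts of the array. They gave signals of 218 and 203 for crossbred and 84.5 and 85.2 for Zebu testis, and differences of 1.43 and 1.32. The mean of 1.38 is a 2.60-fold higher signal. For both genes every crossbred spot was brighter than every Zebu spot of the same probe.

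PLCD1, an isoform of many tissues, had 3 probes. Probe 3, the brightest, had levels of 1.21 in crossbred and 1.69 in Zebu testis and a difference of -0.48, and probe 2 had levels of -2.71 and -1.84 and a difference of -0.87. Probe 1 was not well above background on either array. Both detected probes were lower in crossbred testis by more than the SD between replicate spots, and neither reached 1.5.

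PLCE1, which links Ras-family GTPases to calcium signals, depended on the probe. Probe 1 had signals of 601 and 201, levels of -0.97 and -2.62 and a difference of 1.65, whereas probe 2, 773 bases further along the transcript, had signals of 368 and 446, levels of -1.68 and -1.47 and a difference of -0.21. Both probes were detected on both arrays, and neither spot lies in a marked patch. The surrounding spots had medians of 0.10 and -0.38. The probes therefore differed from each other by 1.86, and among 4758 gene names with exactly 2 probes well above background on both arrays the median gap was 0.28 and 3.28% had a gap this large or larger. PLCG1, which receptor and T cell kinases activate, also had 2 probes. Probe 1 had levels of -3.28 and -4.04 and a difference of 0.75, and probe 2 had levels of -3.37 and -3.40 and a difference of 0.03.

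**Figure D3:**
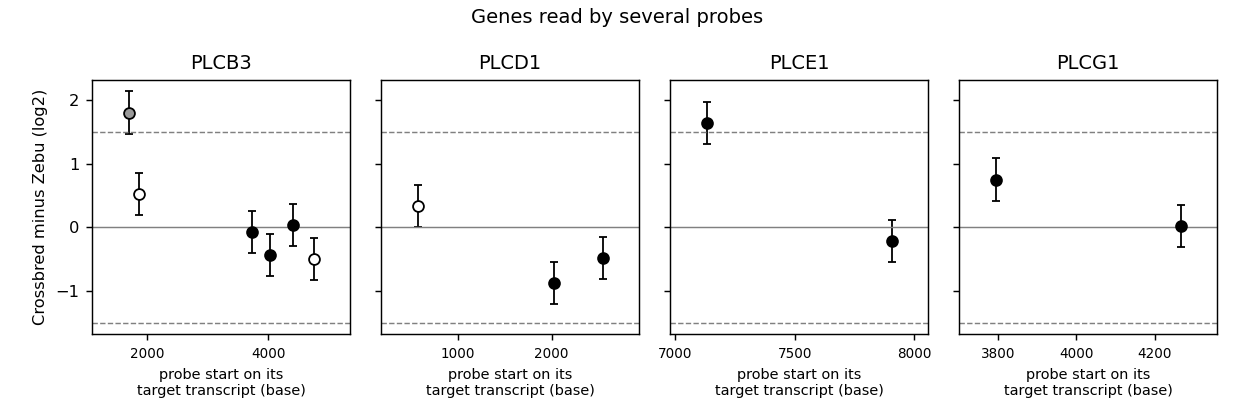
Difference between the arrays (y axis, crossbred minus Zebu, log2, bars of 1 SD between replicate spots) against the start of the probe on its target transcript (x axis, bases) for the 4 genes with several probes; grey and open circles were well above background on 1 or neither array, and dashed lines mark 1.5 in size. In PLCE1 and PLCG1 the probe nearer the start of the transcript has the higher value, and the 2 detected probes of PLCD1 run the other way, from -0.87 to -0.48. Open values have no rank, and the grey value of PLCB3 has a bound of 1.13, above its other detected probes.

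Among the genes with several probes, the probe nearer the 5′ end of the transcript had the higher difference in PLCE1 and PLCG1, where both were detected on both arrays. In PLCD1 the detected probes ran the other way, with -0.87 at base 2020 and -0.48 at base 2542. In PLCB3 the first probe is known for Zebu testis as a bound only, and its bound of 1.13 lies above the other detected probes. Across the array, 7728 targets had at least 2 probes well above background on both arrays, and the first probe on the transcript had a higher difference than the last in 57.6% of them. Where these probes were 1000 or more bases apart it was 64.0% of 3419 targets, with a median of 0.22, and where they were closer it was 52.4% of 4309, with a median of 0.02. The probes of PLCE1 and PLCG1 are 773 and 470 bases apart on the transcript, so both genes fall in the closer group. Labelling was primed from the poly(A) tail, and the part of RNA length in the differences of PLCE1, PLCG1 and PLCB3 was not tested.

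Counted together, 4 of the 15 detected probes lay 1.5 or more higher in crossbred testis, against 6.14% of the 39804 detected probes of the array, and none was lower, against 2.99%. The 4 were those of PLCZ1 and PLCB1, probe 1 of PLCB3 and probe 1 of PLCE1, and with dim spots at their bound the count is 3, without PLCB3. By the brightest probe of each gene, 2 of the 9 detected genes, PLCZ1 and PLCB1, were higher by 1.5 or more, where 7.12% of 24751 detected gene names were, and none was lower, where 2.92% were. PLCZ1, PLCB1 and PLCE1 are among the genes that the study listed because they differed on these arrays, so these counts are not independent evidence. The median difference was 0.04 over the 15 detected probes and -0.08 over all detected probes. Split by mean level, 5.75% of array probes above 0, where PLCZ1 lies, were higher by 1.5 or more and 0.745% lower. Between -4 and 0, where probe 1 of PLCE1 lies, these shares were 6.38% and 2.41%, and below -4, with PLCB1 and probe 1 of PLCB3, they were 6.21% and 7.03%. After normexp background correction the shares over all detected probes were 3.37% higher and 0.65% lower, and of the phospholipase C probes only that of PLCZ1 stayed beyond 1.5, with 1.79.

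In order of the brightest probe, PLCB1 and PLCZ1 led, and they differed from each other by less than the SD between replicate spots. PLCD3 and PLCD4 followed, which also differed from each other by less than that SD. PLCG1, PLCE1, PLCB3 and PLCD1 came next between 0.03 and -0.48, each within the SD of its neighbour, and PLCB4 was last with -1.28. Of the 9 detected genes, 5 lay above and 4 below 0, where 11618 and 13133 of all detected gene names did. However, PLCG1 and PLCE1 lay within the SD of 0. PLCE1 was at 0.72 when its probes were averaged, and PLCB3 was at -0.08 without its spot in the dark patch.

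**Figure D4:**
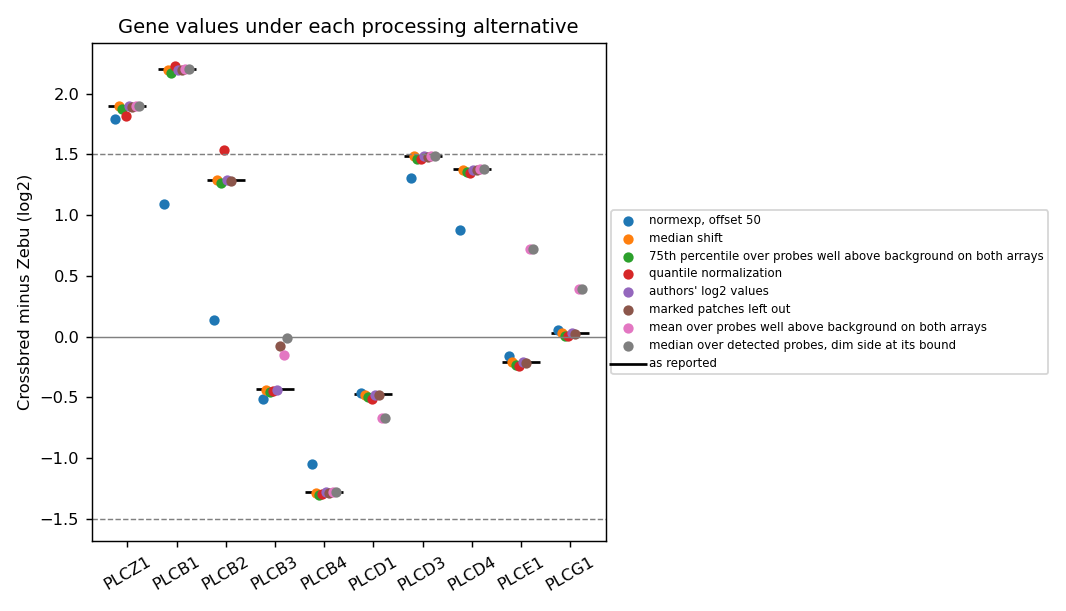
Crossbred minus Zebu difference (y axis, log2) of each gene as reported (black bar, brightest probe) and under the processing alternatives (coloured points), with dashed lines at 1.5 in size. PLCZ1 keeps to 1.79 to 1.90, PLCB1 drops to 1.09 under normexp, and PLCE1 moves from -0.21 to 0.72 when its 2 probes are averaged; PLCB2 was not well above background on either array.

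The other genes of the pathway were read from the brightest probe of each, and single probes of some genes differed from it. The 7 other phospholipase C and related genes on the array had a median of 0.56, which is the value of PLCH1. The other detected probe of PLCH1 differed by -1.19. None of the 7 genes was higher by 1.5, and PLCXD1, an X domain protein, was lower, with -2.23. Its crossbred spot was not well above background, and its Zebu level of -5.80 lies below the lowest crossbred level that was, -5.78, so it gives no fold, and after normexp it was -0.43. A fainter probe of PLCL1, a related protein that lacks the enzyme activity, was higher by 2.14, against 1.16 for its brightest probe. The remaining probes of PLCL1 were higher by 1.32 and 1.0. The measured differences of all 7 genes were larger than the SD between replicate spots, a share not counted for the whole array, and 4 were above 0. However, PLCXD1, PLCH2 and PLCXD2 were each well above background on 1 array only. At its bound PLCH2 was at least 1.09-fold lower in crossbred testis, which is less than that SD, and PLCXD2 at least 1.37-fold higher. PLCG2, the gamma isoform of blood cells, is listed by a transcript identifier and its detected probe differed by 0.03. None of the 4 Gq family alpha subunits differed by 1.5, and their median was -0.14, the largest in size being GNA14 with -0.93.

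By the brightest probe, none of the 8 detected genes for IP3 receptors and IP3 metabolism differed by 1.5, and their median was -0.02. Of these genes, 6 differed by more than the SD between replicate spots, in both directions. The share of all detected gene names beyond that SD was not counted, so this is not a result about the list. ITPR3, an IP3 receptor, differed by -1.06, its 2 other probes by -1.04 each, and INPP1, which breaks down inositol phosphates, by 0.80. Fainter probes went beyond 1.5 in a pair of these genes. ITPR1, another IP3 receptor, differed by 0.15 in its brightest probe, and a fainter probe with a difference of 2.76 was not well above background in Zebu testis, which leaves at least a 1.53-fold higher signal. The remaining probes of ITPR1 ran from -0.36 to 0.3. IMPA2, an inositol monophosphatase, differed by 0.49 in its brightest probe and by -1.55 and -0.27 in its others.

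Of 12 genes for PIP2 synthesis, with a median of -0.12, only PIP5K1B, a kinase that makes PIP2, was beyond 1.5 in its brightest probe, with levels of -3.22 and -5.00 and a difference of 1.78 in its only probe, which fell to 0.89 after normexp. Fainter probes of PIP4K2C and PI4KB, both lipid kinases, went beyond 1.5 too. PIP4K2C differed by -0.26 in its brightest probe and by 2.41 and 0.86 in its others. PI4KB differed by 0.18 in its brightest probe, and another probe, whose spot lies in the dark patch of the crossbred array, had levels of -7.98 (not well above background) and 1.22 and a difference of -9.20. Its remaining probes differed by -0.19 and -0.76. In the real-time PCR of the study, PI4KB followed the opposite trend to the array, without a significant difference. The probes of ITPR1, IMPA2, PIP4K2C, PI4KB and PLCL1 beyond 1.5 were picked after their values were seen.

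Among 17 detected diacylglycerol effectors and kinases, with a median of 0.06, PRKCD and PRKCQ were higher by 1.5 or more and none was lower. Array-wide, 7.12% of detected gene names were higher and 2.92% lower, and with so few genes a count of 1 in 12 or 2 in 17 is not a result about these lists. PRKCD, protein kinase C delta, had levels of 4.22 and 1.70, crossbred before Zebu, which differ by 2.51, and the differences of its 2 other probes were 2.48 and 2.01. PRKCQ, protein kinase C theta, had levels of 2.25 and 0.64, which differ by 1.61, while its 3 other probes ran from 0.69 to 1.41. The median over all detected gene names was -0.06. These lists were not tested against other genes.

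**Figure D5:**
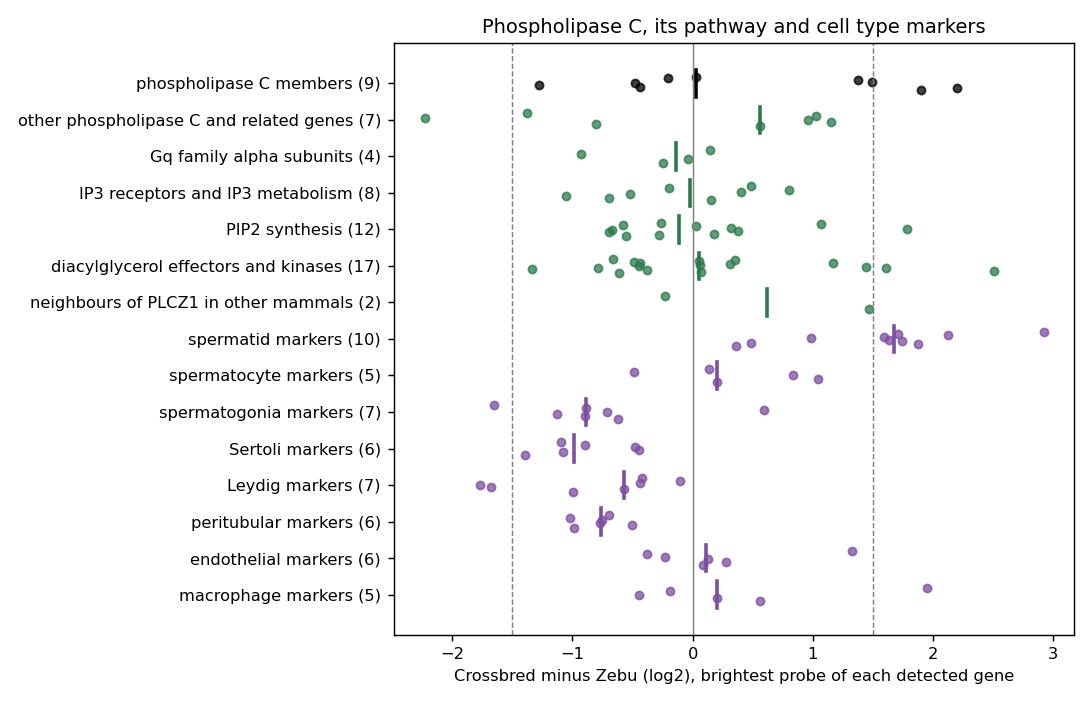
Crossbred minus Zebu difference (x axis, log2) of the brightest probe of each detected gene in the phospholipase C set (black), the pathway lists (green) and the cell type marker lists (purple), with the number of genes in brackets, a vertical bar at each median and dashed lines at 1.5 in size. The spermatid markers have a median of 1.67 and lie above 0 throughout, the Sertoli, Leydig and peritubular markers lie below 0 throughout, and the phospholipase C genes lie on both sides.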

How the data were processed

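RNA of the testes of 3 bulls was pooled in each group and measured on 1 array, crossbred or Zebu. The authors read the arrays with Feature Extraction 11.5 and deposited its processed intensity per spot, which the file headers describe as corrected for background and spatial trend, along with mean intensity and local background. They also deposited log2 values shifted to the 75th percentile in GeneSpring GX 12.6. Here, 13 outlier spots and all control spots were left out, processed signals were put on the log2 scale, spots sharing a probe were averaged, and each array was shifted by its 75th percentile over non-control probes. The probe with the highest mean log2 level over both arrays stood for a gene. A dim side was set to the lowest level well above background for a bound. Probes were counted at a log2 difference of 1.5 (2.83-fold) if well above background on the brighter array. The study states a threshold of 1.5, which is read here on the log2 scale.

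All 10 genes are named with all their probes. From each pathway list the genes beyond 1.5 are named, or else at most 2 with the largest differences. PLCH1, PLCH2 and PLCXD2 are named too, for the limits they set on their list. The members, lists and steps were chosen with earlier results of these data known, and the probes matched by accession or description, with the fainter probes beyond 1.5, were added after the values were seen. Gene neighbours come from the gene table of ARS-UCD2.0, in which all 10 symbols matched. Alternatives were normexp with an offset of 50, other scalings, quantile normalization, the authors' log2 values, spots in 2 marked patches left out, other thresholds, filters and probe rules. The scaling and the counting were tested on simulated data with large changes in bright probes only. The handling of dim spots, bounds, outlier spots and patches was not tested that way. Python 3.11.15, numpy 2.4.6, pandas 2.3.3, scipy 1.17.1, R 4.3.3 and limma 3.58.1 were used. Real-time PCR was not analysed here.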

Additional observations from a re-analysis of the deposited data

How the results depend on the processing

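With 1 array per group, no library could be left out, and no paired analysis was possible because each group has 1 sample and the labels give no replicate number. PLCZ1 stayed between 1.79 and 1.90 under all 8 alternatives, but most of these could not move it. It has 1 probe in 1 spot, so the probe rules return the same value. The percentile and median shifts, the authors' values and the patches left out change it only by a constant of the whole array. The count of probes higher by 1.5 fell from 4 to 1 after normexp and was 7 at a linear fold of 1.5. The offset of normexp lowers dim differences by itself, so this fall cannot decide which of them are real. The count of lower probes was 0, and 1 at a log2 threshold of 1 and 2 at a linear fold of 1.5. For genes, 2 were higher, against 1 after normexp and 4 at either looser threshold, and 1 was lower at either looser threshold against 0. Without the marked patches, the median over detected probes moved from 0.04 to 0.389, as 1 probe of PLCB3 dropped out. The other 50 values moved by less than the replicate spot SD or by at most 1.5 times, among them 6 higher probes at a log2 threshold of 1 and 3 with dim spots at their bound. Over all detected probes, normexp gave 1340 higher and 257 lower, against 2444 and 1190.

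Among single genes, normexp also gave PLCB1 1.09, PLCD4 0.88 and PLCB2 0.13. The mean over probes well above background gave PLCE1 0.72, in place of -0.21, and PLCG1 0.39. In the pathway lists, normexp ended the calls of PIP5K1B (0.89) and PLCXD1 (-0.43), brought CAPZA3 to 1.51, and made the dark patch probe of PI4KB its brightest, with -5.33. Dim signals limit PLCB1, PLCB2 and probe 1 of PLCB3.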
